A study of Sus scrofa with 6 samples.

Results

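Pluripotency and inner cell mass factors are genes used to recognise the cells of a blastocyst that will form the fetus. A list of 10 such factors was set beside the deposited gene table, and 7 of them were found by gene name: *KLF17*, *GDF3*, *LIN28A*, *SALL4*, *SOX2*, *PRDM14* and *TFCP2L1*. They are 7 of 24358 genes in the table. The other 3, *POU5F1*, *NANOG* and *KLF4*, stand in rows that carry only an Ensembl identifier, and they were matched through an NCBI gene number or a table of reference names. These 3 rows are described apart from the 7. RNA was sequenced from 6 single pig embryos (*Sus scrofa*) collected on the fifth day of culture and called blastocysts in the sample labels. The *CARM1* KD group holds 3 embryos grown from metaphase II oocytes injected with *CARM1* siRNA, and the control group holds 3 embryos that received no injection, so the injection itself had no matched control in this experiment. All embryos came from oocytes of slaughterhouse ovaries matured in vitro. The sources used here do not state whether these 6 were parthenogenetic or fertilized.

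At the blastocyst stage the embryo separates an outer trophectoderm from an inner cell mass, which divides again into epiblast and primitive endoderm. *POU5F1*, *SOX2* and *NANOG* form the central circuit of the epiblast, and *KLF4*, *KLF17*, *TFCP2L1* and *PRDM14* belong to the naive state that precedes implantation, as known mainly from mouse and human cells. *LIN28A* and *POU5F1* are also present as maternal RNA in mammalian oocytes. Since each library is 1 whole embryo, fewer inner cells and less RNA per cell cannot be told apart. Nor can RNA of inner cells be told from RNA of other cells or from RNA left by the oocyte.

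The libraries held between 26341924 and 41727594 estimated counts, and 2 of them stood apart. Control 2 had 46.0% of its counts on mitochondrially encoded genes, against 14.5% to 23.9% in the other 5 embryos. A list of 15 oocyte transcripts, such as *BMP15* and *WEE2*, summed to 360, 36.9 and 2227 FPKM in *CARM1* KD 1, 2 and 3, and to 851, 4702 and 204 FPKM in control 1, 2 and 3. FPKM divides a gene's fragments by its transcript length and by the size of the library. Control 2 and *CARM1* KD 3 were thus highest in oocyte transcripts. Genes on chromosome Y summed to 178 and 215 FPKM in *CARM1* KD 1 and 2 while the sum did not pass 28.1 FPKM in any of the other 4. No control embryo had such a high sum, so whatever lies behind it cannot be separated from the treatment in the fold changes below. Its part in them was not tested. *CARM1*, the siRNA target, was at 0.130, 0.150 and 0.274 FPKM in the *CARM1* KD embryos, against 1.96, 4.54 and 1.26 FPKM in the control embryos (log2 fold change -3.98, standard error 1.02, unadjusted p = 0.00516 and adjusted p = 0.99989 from edgeR).

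Of the 7 factors found by name, 4 were read at about 10 to 24 FPKM on average over the 6 embryos and 3 at under 2 FPKM. *KLF17* averaged 24.0 FPKM, *GDF3* 23.8, *LIN28A* 13.4 and *SALL4* 10.8, while *SOX2* averaged 1.56, *PRDM14* 1.55 and *TFCP2L1* 0.768. *SALL4* was above *SOX2*, *PRDM14* and *TFCP2L1* in 6 of 6 embryos. *KLF17* was above *GDF3* in 5 of 6 and *LIN28A* above *SALL4* in 2 of 6, so these neighbours in the order of means were not separated embryo by embryo. *SOX2* was above *PRDM14* in 3 of 6 embryos. All 7 factors passed the filter for testing, which asked for 1 FPKM or more in 2 or more embryos, as did 10639 genes of the whole table.

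**Figure D1:**
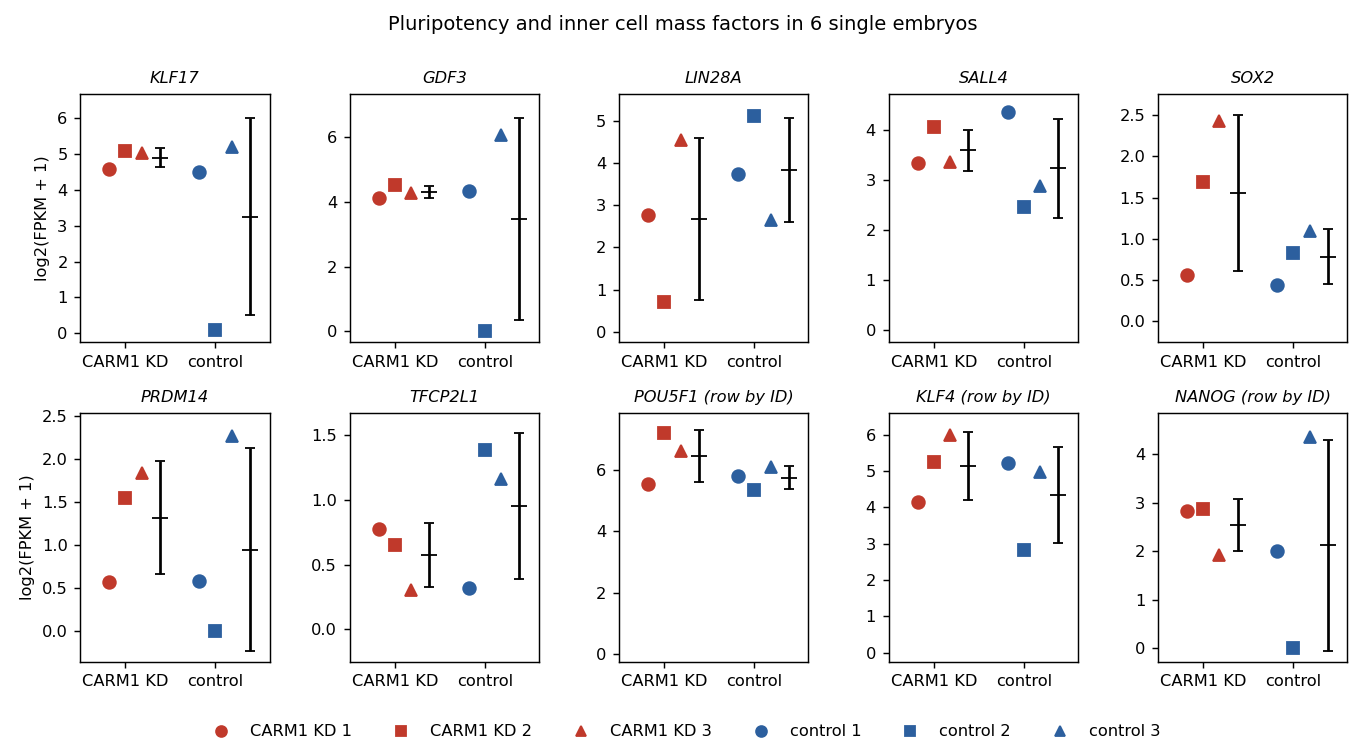
Levels of the 7 factors found by gene name and of the 3 rows named only by identifier, as log2(FPKM + 1) in each of 6 embryos. Symbols are single embryos, with *CARM1* KD on the left of each panel and control on the right, and black bars are the group mean ± SD of the plotted values (n = 3). The *CARM1* KD embryos lie close together for *KLF17* and *GDF3*, and control 2 lies at or near 0 for *KLF17*, *GDF3*, *PRDM14* and *NANOG*.

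Between *CARM1* KD and control embryos, 0 of the 7 factors passed edgeR's test at an adjusted p under 0.05, beside 0% of the 10639 genes tested. At an unadjusted p under 0.05 the count was again 0 of 7, beside 0.686% of the genes tested (36 higher and 37 lower). DESeq2 called 5 genes higher and 7 lower at its adjusted threshold, and 0 of these were among the 7. The FPKM values of the groups overlapped for all 7, and they did not overlap for 4.89% of the genes tested. Relative to control, 3 factors had higher and 4 had lower fitted values in *CARM1* KD, with a median log2 fold change of -0.0012, against 0.10 over all genes tested. Standard errors lay between 0.76 and 1.96 on the log2 scale, and the common biological coefficient of variation was 1.12. Differences of a few fold were thus not detectable among 3 embryos against 3, and larger ones could also go uncalled. The lowest adjusted p over all genes tested was 0.9999 from edgeR, and *CARM1* itself, at a log2 fold change of -3.98, did not pass.

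*KLF17*, a Krüppel-like zinc finger factor that marks the naive epiblast in human embryos, had 23.1, 32.7 and 31.6 FPKM in *CARM1* KD 1, 2 and 3, against 21.4, 0.0663 and 35.3 FPKM in control 1, 2 and 3. All embryos but control 2 lay between 21.4 and 35.3 FPKM, and control 2 held 4 counts of *KLF17*. The highest *CARM1* KD value was 1.42 times the lowest, and the highest control value was 533 times the lowest. Its log2 fold change was 0.52 (standard error 1.45, adjusted p = 0.99989 from edgeR). Without control 2 it was -0.082, and without control 3 it was 1.47. *KLF17* (ENSSSCG00000024191) lies on chromosome 6 from 167176834 to 167188418 on the minus strand of the pig genome (Sscrofa11.1, as for all coordinates here), with 1 deposited transcript of 3 exons and 1955 nucleotides.

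*GDF3*, a ligand of the transforming growth factor beta family that signals like NODAL, had 16.5, 21.9 and 18.4 FPKM in *CARM1* KD 1, 2 and 3, against 19.5, 0 and 66.7 FPKM in control 1, 2 and 3. The *CARM1* KD embryos sat within a narrow band near control 1, while the other control embryos lay far below and far above it. The count of 0 in control 2 allows up to 0.0896 FPKM (3 counts, counting error only), whereas control 3 held 2021 counts. The mean was 19.0 ± 2.74 FPKM in *CARM1* KD and 28.7 ± 34.3 FPKM in control (SD, n = 3 each). In the fit, *GDF3* had a log2 fold change of -0.71 (standard error 1.77). It was -1.31 without control 2 and 1.02 without control 3.

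*SALL4*, a zinc finger factor that recruits the NuRD corepressor, was read in every embryo. It had 9.21, 15.9 and 9.36 FPKM in *CARM1* KD 1, 2 and 3, against 19.6, 4.48 and 6.41 FPKM in control 1, 2 and 3. The highest and the lowest value were both in control embryos. Its mean was 11.5 ± 3.81 FPKM in *CARM1* KD and 10.2 ± 8.24 FPKM in control (SD, n = 3 each). The log2 fold change of 0.18 had a standard error of 0.76, the smallest of the 7 factors, and it was 0.95 without control 1, -0.30 without *CARM1* KD 2, -0.18 without control 2 and -0.023 without control 3. *SALL4* (ENSSSCG00000007479) lies on chromosome 17 from 53079636 to 53103023, and its 1 deposited transcript of 7829 nucleotides gave between 1075 and 6739 counts per embryo. Another row of the table, RF00001, overlaps it on the opposite strand.

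*LIN28A*, an RNA-binding protein that blocks maturation of the let-7 microRNAs, followed another order than *KLF17* and *GDF3*. It had 5.85, 0.627 and 22.6 FPKM in *CARM1* KD 1, 2 and 3, against 12.4, 33.7 and 5.28 FPKM in control 1, 2 and 3. The 2 highest embryos were control 2 and *CARM1* KD 3, which are also the highest in oocyte transcripts, and the lowest was *CARM1* KD 2, which is the lowest in them. The order of the 6 embryos by *LIN28A* was the order by the oocyte list throughout, as it was for 429 of the 10639 genes tested (4.03%). *LIN28A* had a log2 fold change of -1.20 (standard error 1.30). It was -0.16 without control 2 and -2.59 without *CARM1* KD 3, and -1.37 without both. In a fit with the oocyte list as a term it was -0.55. The part of oocyte transcripts in the *LIN28A* values was not tested. *LIN28A* (ENSSSCG00000003557, chromosome 6, 83806178 to 83818550) rested on 16 counts in *CARM1* KD 2 and on 639 in control 2.

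**Figure D2:**
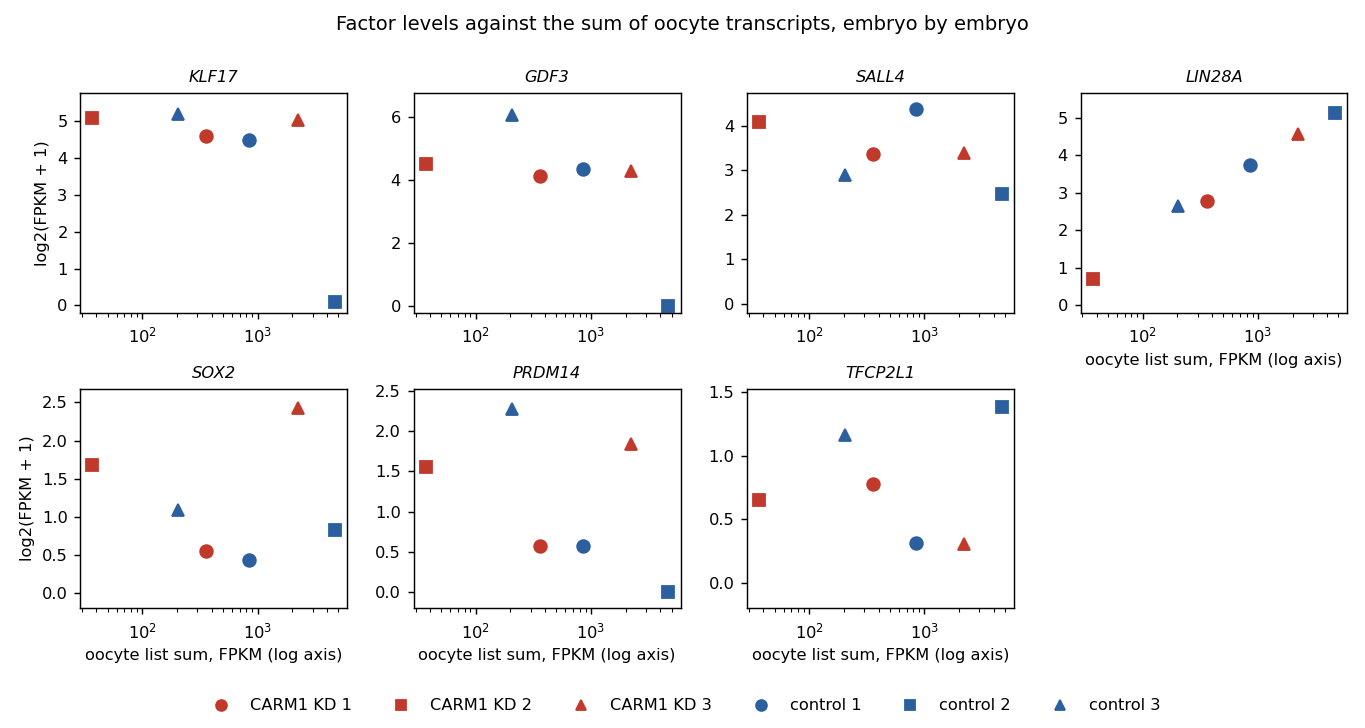
Level of each of the 7 factors as log2(FPKM + 1) against the summed FPKM of the oocyte list on a log axis, 1 point per embryo. *LIN28A* is lowest in *CARM1* KD 2 (0.627 FPKM) and highest in control 2 (33.7 FPKM) in the same order as the oocyte sum, while *KLF17* (0.0663 FPKM) and *GDF3* (0 FPKM) are at or near 0 only in control 2.

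*SOX2*, the HMG-box partner of POU5F1, had 0.472, 2.21 and 4.39 FPKM in *CARM1* KD 1, 2 and 3, against 0.356, 0.771 and 1.13 FPKM in control 1, 2 and 3. The 2 highest values were in *CARM1* KD embryos, but *CARM1* KD 1 lay below 2 of the 3 control embryos. The mean was 2.36 ± 1.96 FPKM in *CARM1* KD and 0.753 ± 0.389 FPKM in control (SD, n = 3 each). These levels rested on 100 to 1185 counts, since the single-exon transcript is 6357 nucleotides long. *SOX2* had a log2 fold change of 1.37 (standard error 1.05, unadjusted p = 0.227 and adjusted p = 0.99989 from edgeR), the largest in size of the 7. It lay between 0.80 and 1.88 when each embryo was left out in turn. Without *CARM1* KD 1 the groups did not overlap for *SOX2*, nor did they for 13.9% of the genes tested. *SOX2* (ENSSSCG00000037485) lies on chromosome 13 from 119663183 to 119669539, and no other gene of the table overlaps it.

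*PRDM14*, a PR domain factor that keeps mouse embryonic stem cells in the naive state, had 0.491, 1.93 and 2.57 FPKM in *CARM1* KD 1, 2 and 3, against 0.495, 0 and 3.82 FPKM in control 1, 2 and 3. *CARM1* KD 1 and control 1 were nearly equal, and the control embryos held both the lowest and the highest value. The count of 0 in control 2 allows up to 0.0583 FPKM. Its fitted log2 fold change was -0.0012 (standard error 1.96), and it lay between -0.60 (without control 2) and 2.69 (without control 3) with 1 embryo left out. *PRDM14* (ENSSSCG00000006195) lies on chromosome 4 from 65274003 to 65295178.

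*TFCP2L1*, a grainyhead-family factor that acts downstream of LIF in mouse embryonic stem cells, was the lowest of the 7. It had 0.712, 0.568 and 0.234 FPKM in *CARM1* KD 1, 2 and 3, against 0.245, 1.61 and 1.24 FPKM in control 1, 2 and 3. No *CARM1* KD embryo reached 1 FPKM and 2 control embryos did, while control 1 lay with the lowest *CARM1* KD embryo. *TFCP2L1* had a log2 fold change of -1.10 (standard error 1.49), resting on 18 to 89 counts per embryo. It passed the filter for testing only through control 2 and control 3, which by itself favours a lower value in *CARM1* KD. Without control 1 the groups did not overlap for *TFCP2L1*, which was lower, and for *SALL4*, which was higher in *CARM1* KD, beside 13.0% of the genes tested. *TFCP2L1* (ENSSSCG00000015732, chromosome 15, 30072291 to 30131067) was the only factor with 2 deposited transcripts. ENSSSCT00000033811, with 12 exons, held all counts except 8 counts of ENSSSCT00000017132 in control 2.

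**Figure D3:**
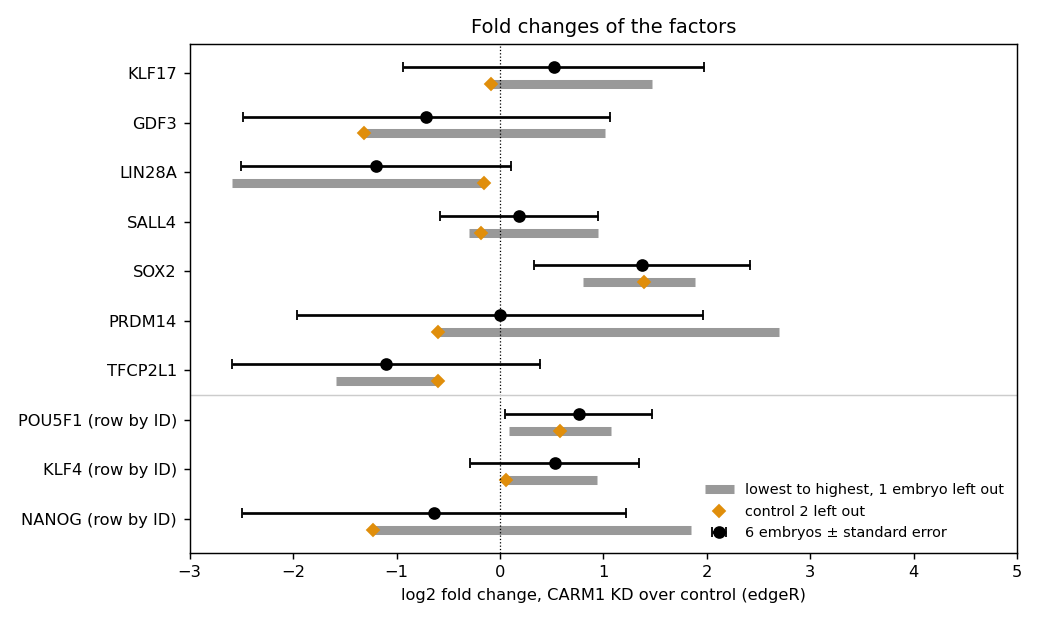
Log2 fold change of *CARM1* KD over control for each factor. Black points are the edgeR fit on 6 embryos with its standard error, grey bars span the lowest to the highest value with 1 embryo left out, and orange diamonds are the fit without control 2. With 1 embryo left out, *SOX2*, *POU5F1* and *KLF4* stay above 0 and *LIN28A* and *TFCP2L1* below 0, and the grey bars of *KLF17*, *GDF3*, *SALL4*, *PRDM14* and *NANOG* cross 0.

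Among the 3 rows named only by identifier, *POU5F1* (ENSSSCG00000001393, chromosome 7, 23564908 to 23570600), the POU homeodomain factor of the pluripotency circuit, had the highest mean FPKM of all 10 factors. It had 45.0, 146 and 97.5 FPKM in *CARM1* KD 1, 2 and 3, against 54.0, 39.8 and 67.4 FPKM in control 1, 2 and 3. *CARM1* KD 2 and 3 were above every control embryo, and *CARM1* KD 1 lay within the control range. The log2 fold change was 0.76 (standard error 0.71), between 0.086 and 1.08 with 1 embryo left out. Control 2, at or near 0 for *KLF17* and *GDF3*, held 1323 counts of *POU5F1*. A row described as a *POU5F1* pseudogene had a count of 0 in all embryos, but the sources used here do not say how reads shared by copies were counted.

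*KLF4* (ENSSSCG00000005437, chromosome 1, 248604822 to 248609718), a Krüppel-like reprogramming factor, had 16.8, 37.1 and 62.5 FPKM in *CARM1* KD 1, 2 and 3, against 36.3, 6.05 and 30.03 FPKM in control 1, 2 and 3, with a log2 fold change of 0.53 (standard error 0.82). The groups overlapped, with the highest embryo in *CARM1* KD and the lowest in control. *NANOG* (ENSSSCG00000040403), the homeodomain factor of the epiblast, had 6.09, 6.27 and 2.81 FPKM in *CARM1* KD 1, 2 and 3, against 3.03, 0 and 19.4 FPKM in control 1, 2 and 3. As for *GDF3*, control embryos held both ends of the range. For *NANOG* the log2 fold change was -0.64 (standard error 1.86), and it was 1.84 without control 3. At an unadjusted p under 0.05, 0 of these 3 rows passed.

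Control 2 thus held the lowest value for 4 of the 7 factors and for all 3 rows named by identifier, and the highest value for *LIN28A* and *TFCP2L1*. Over all genes tested, control 2 was the lowest embryo for 42.1% and the highest for 18.8%. A count of 0 in control 2 was found for *GDF3* and *PRDM14*, 2 of the 7, and for 18.3% of the genes tested. *KLF17* and *GDF3* had at least 5 FPKM in each of the other 5 embryos and under 1 FPKM in control 2. Of 3057 genes with at least 5 FPKM in those 5 embryos, 509 (16.7%) were under 1 FPKM in control 2.

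*GDF3* and *NANOG* are neighbours on chromosome 5, where *GDF3* (ENSSSCG00000000669) runs from 62835979 to 62841665 and *NANOG* begins 90.9 kb further on, and they belong to a pluripotency gene cluster that is conserved among mammals. The region within 150 kb of *GDF3* was examined after the values had been seen. Of the 8 genes considered there, 6 had a count in some embryo. Of these 6, *RIMKLB*, *MFAP5*, *APOBEC1*, *GDF3* and *NANOG* had a count of 0 in control 2, and *SLC2A3*, a glucose transporter, had 0.602 FPKM there. The zeros of *GDF3* and *NANOG* were known before the region was chosen. Over the whole table, 18053 genes had a count in some embryo and 11173 had a count in control 2, so zeros there were common. *NANOG*, like *GDF3*, was highest in control 3 (19.4 FPKM), whereas *APOBEC1* and *RIMKLB* were not. *APOBEC1*, a cytidine deaminase, had 20.3, 3.68 and 0 FPKM in *CARM1* KD 1, 2 and 3, against 18.4, 0 and 2.14 FPKM in control 1, 2 and 3. *RIMKLB* had 23.7, 23.9 and 2.47 FPKM in *CARM1* KD 1, 2 and 3, against 64.9, 0 and 50.2 FPKM in control 1, 2 and 3.

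**Figure D4:**
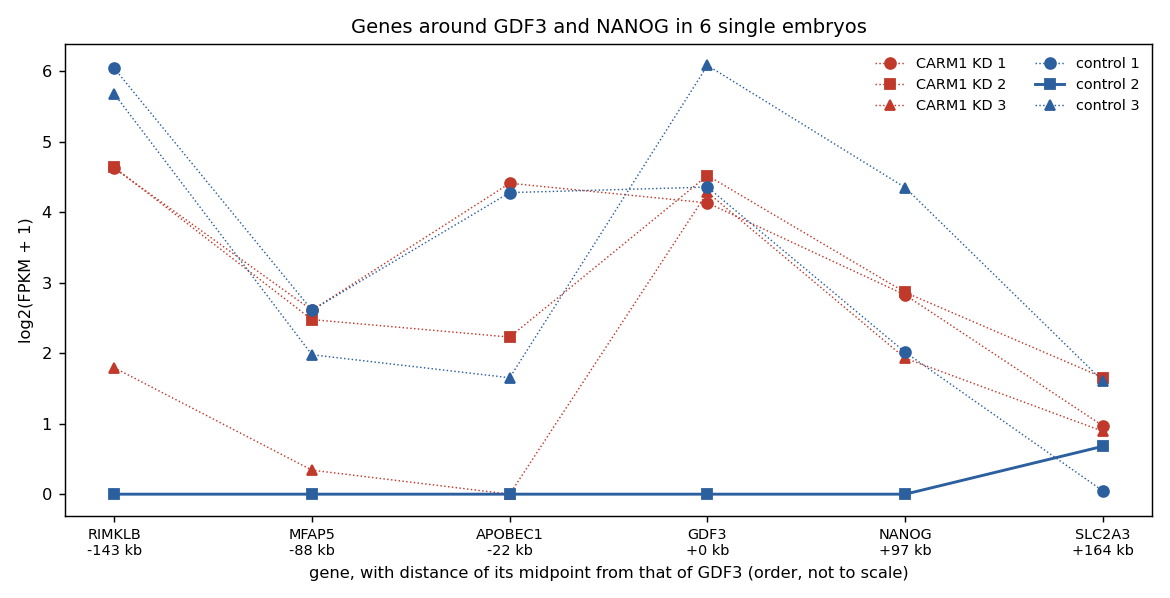
Level as log2(FPKM + 1) of 6 genes read around *GDF3* and *NANOG*, in their order on the chromosome, with the distance of each midpoint from that of *GDF3* in kb. Lines join the values of 1 embryo, and the solid line is control 2, which lies at 0 for 5 of the 6 genes.

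Of the 3 most abundant factors found by name, the genes with the most similar profile were sought by Pearson's correlation of log2(FPKM + 1) over the 6 libraries, which share the 2 libraries that stand apart. *KLF17* was most like *LCMT1* (r = 0.9996), *MTX1* (r = 0.9990) and ENSSSCG00000037266 (r = 0.9989). *GDF3* was most like *SMYD3* (r = 0.996), *IFI30* (r = 0.995) and *PLEKHA5* (r = 0.995). *LIN28A* was most like *JAK1* (r = 0.998) and *USP8* (r = 0.998). Such likeness was common, since 1401, 1076 and 823 genes had r over 0.9 with *KLF17*, *GDF3* and *LIN28A*.

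In a wider list of pluripotency genes, 21 of the 34 found were tested, of which 12 had higher and 9 had lower fitted values in *CARM1* KD, and 0 passed at an unadjusted p under 0.05 in either direction. Their median log2 fold change was 0.19, against 0.10 over all genes tested. Factors of the naive state differed in their order over the embryos. *ESRRB*, an orphan nuclear receptor, had 11.1, 50.6 and 30.2 FPKM in *CARM1* KD 1, 2 and 3, against 17.8, 0.0875 and 47.0 FPKM in control 1, 2 and 3. *ZFP42*, known as REX1, had 52.3, 34.3 and 4.34 FPKM in *CARM1* KD 1, 2 and 3, against 37.4, 0 and 35.2 FPKM in control 1, 2 and 3. Both were at or near 0 in control 2, and *ZFP42* was low in *CARM1* KD 3 as well. *KLF2*, a Krüppel-like factor, had 0.544, 0 and 2.42 FPKM in *CARM1* KD 1, 2 and 3, against 0.939, 1.95 and 0.503 FPKM in control 1, 2 and 3, so that among control embryos it was highest in control 2, as *TFCP2L1* was. These 3 genes were chosen after their values were seen. *DPPA2*, *SOX15*, *DPPA5* and *OTX2* had the highest mean FPKM of the list. *DPPA2* averaged 90.5 ± 14.7 FPKM in *CARM1* KD and 86.3 ± 73.8 FPKM in control, and *SOX15* averaged 46.9 ± 45.1 FPKM in *CARM1* KD and 22.7 ± 19.0 FPKM in control (SD, n = 3 each). *DPPA5*, an RNA-binding protein of early embryos, had 75.1, 26.4 and 493 FPKM in *CARM1* KD 1, 2 and 3, against 110, 577 and 150 FPKM in control 1, 2 and 3. *OTX2* averaged 26.7 ± 16.7 FPKM in *CARM1* KD and 35.7 ± 26.3 FPKM in control (SD, n = 3 each).

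Of the NODAL and activin pathway, through which GDF3 can signal, 10 of 18 genes found were tested, 5 higher and 5 lower, with 0 past an unadjusted p of 0.05 and a median log2 fold change of 0.15. *NODAL* itself was at 0.139, 0 and 0.138 FPKM in *CARM1* KD 1, 2 and 3, against 0, 4.31 and 0 FPKM in control 1, 2 and 3, so that it was read chiefly in the embryo with a count of 0 for *GDF3*. *FST*, which binds activin, had the highest mean among them, 5.42 ± 2.36 FPKM in *CARM1* KD and 15.4 ± 10.7 FPKM in control (SD, n = 3 each; log2 fold change -1.63, standard error 0.94). Of the LIF and IL6 family pathway, 6 of 12 genes were tested, 2 higher and 4 lower (median -0.31), and 0 passed. *IL6* had 45.9, 14.6 and 0 FPKM in *CARM1* KD 1, 2 and 3, against 37.7, 0 and 70.2 FPKM in control 1, 2 and 3, and *JAK1* had 12.1, 2.502 and 51.7 FPKM in *CARM1* KD 1, 2 and 3, against 24.0, 65.6 and 11.4 FPKM in control 1, 2 and 3. The embryos with a count of 0 for *IL6* were thus those with the most *JAK1* and *LIN28A*. Of 16 partners of the factors, such as NuRD subunits bound by SALL4, all were tested, 10 higher and 6 lower (median 0.09), and 0 passed. *RBBP4*, a histone-binding NuRD subunit, averaged 90.7 ± 54.7 FPKM in *CARM1* KD and 83.1 ± 40.7 FPKM in control (SD, n = 3 each), and *HDAC2* had its lowest value, 0.970 FPKM, in control 2.

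Markers of the other lineages were read beside the factors. Trophectoderm markers, 13 in all, summed to 468, 536 and 140 FPKM in *CARM1* KD 1, 2 and 3, against 300.2, 7.62 and 443 FPKM in control 1, 2 and 3. The list did not move as one. The keratin *KRT8* had 45.7, 141 and 0 FPKM in *CARM1* KD 1, 2 and 3, against 7.54, 0.0484 and 30.6 FPKM in control 1, 2 and 3, and *KRT18* was likewise at 0 in *CARM1* KD 3 and in control 2. *TFAP2C*, a factor of early trophectoderm, had 41.2, 27.9 and 35.1 FPKM in *CARM1* KD 1, 2 and 3, against 50.1, 0.586 and 49.7 FPKM in control 1, 2 and 3. *PTGES*, the highest of the list by mean FPKM, had 225, 179 and 88.9 FPKM in *CARM1* KD 1, 2 and 3, against 192, 0 and 292 FPKM in control 1, 2 and 3. In *CARM1* KD 3 these 2 genes were thus read and the keratins were not. *CDX2*, the defining trophectoderm factor, was at most 0.445 FPKM in any of the 6 embryos, which the labels call blastocysts. The paper counted trophectoderm cells in blastocysts by staining for CDX2 protein, and RNA and protein were not compared here. Of 11 primitive endoderm markers, *SOX17* had a count of 0 in every embryo. *GATA6* had 12.7, 50.5 and 22.8 FPKM in *CARM1* KD 1, 2 and 3, against 17.7, 0 and 20.5 FPKM in control 1, 2 and 3. Of the trophectoderm list 8 genes were tested (5 higher and 3 lower, median 0.70), of the primitive endoderm list 6 (1 higher and 5 lower, median -0.48) and of the oocyte list 13 (2 higher and 11 lower, median -1.25), and 0 passed at an unadjusted p under 0.05. Cumulus and granulosa markers, 8 in all, summed to at most 1.42 FPKM and were not tested. The part of these differences in the values of the 7 factors was not tested.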

How the data were processed

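The authors prepared pre-amplified cDNA from single embryos and sequenced it on Illumina HiSeq. The deposited tables give estimated counts and FPKM of 24358 genes and 47421 transcripts, with a small constant as the FPKM wherever the count was 0, read here as 0. The paper names Cufflinks, while HISAT2, StringTie, edgeR and fastp, with no version, and a human genome build, GRCh38.p10, stand in the notes of the submitters. Of genes with the same symbol in RefSeq's annotation of Sscrofa11.1, 99.9% overlapped the deposited coordinates. All 24358 gene counts equalled the sum over transcripts.

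Estimated counts were rounded and scaled by TMM, and the 10639 genes that reached 1 FPKM in 2 or more libraries entered the quasi-likelihood test of edgeR 4.0.16, with Benjamini-Hochberg adjustment. DESeq2 1.42.0 and limma 3.58.1 served as alternatives under R 4.3.3, and tables were handled with pandas 2.3.3. Standard errors were the log2 fold change over the square root of F. The fit was run on simulated counts whose spread was set far below the biological coefficient of variation of 1.12 found here. That run therefore does not show how the fit performs on these embryos. The members and lists were chosen with earlier results of these data known. Genes named were the factors, *CARM1*, in each list the 4 tested genes with the highest mean FPKM and any at an unadjusted p under 0.05, and the 3 most similar profiles, of which a few are not reported here. Others are named as defining markers or for their position, after their values were seen. No sequence is shown, and a planned search for promoter motifs was not run. Alternatives were other scaling, filters, limma with pseudocounts of 1 and 0.1, a replicate block, library weights, an oocyte term, left-out embryos and removal of mitochondrial genes. Separate embryos are the replicates.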

Additional observations from a re-analysis of the deposited data

How the results depend on the processing

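Under all alternatives, 0 of the 7 factors passed an adjusted or an unadjusted p under 0.05, and the adjusted p from edgeR, DESeq2 and limma lay between 0.996 and 1 for all 10 factors. *SOX2*, *LIN28A* and *POU5F1* kept their direction in 17 of 17 alternatives. With 1 embryo left out, the log2 fold change ranged from -0.082 to 1.47 for *KLF17*, -1.31 to 1.02 for *GDF3*, -2.59 to -0.16 for *LIN28A*, -0.30 to 0.95 for *SALL4*, 0.80 to 1.88 for *SOX2*, -0.60 to 2.69 for *PRDM14*, -1.59 to -0.60 for *TFCP2L1*, 0.086 to 1.08 for *POU5F1*, 0.055 to 0.94 for *KLF4* and -1.23 to 1.84 for *NANOG*. With 1 embryo left out, the groups did not overlap for 0 to 2 of the 7 factors, beside 9.60% to 17.5% of the genes tested. Besides the cases given above, this held for *KLF17*, higher in *CARM1* KD without control 3, beside 13.2% of the genes tested. Directions turned with limma on log2(FPKM + 1) for *GDF3* (0.83), *NANOG* (0.42) and *PRDM14* (0.37), and with a pseudocount of 0.1 for the same 3 (1.90, 1.41 and 1.26), where the median of all genes was 0.22 and 0.34 in place of 0.10. Library weights turned *KLF4* (-0.21), *NANOG* (0.44), *PRDM14* (0.52), *SALL4* (-0.20) and *TFCP2L1* (0.42). The oocyte term turned *PRDM14* (0.52) and *SALL4* (-0.26), and leaving out control 2 and *CARM1* KD 3 together turned *KLF4* (-0.17). *PRDM14* was 0.074 with no filter and 0.030 with an FPKM of at least 1 in 3 libraries, where *TFCP2L1* was not tested. The causes were not tested.

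Deviations of the same-numbered embryos from their group means correlated at 0.24, -0.51 and -0.57. The highest correlation, 0.60, was between *CARM1* KD 3 and control 2, the embryos highest in oocyte transcripts. Deviations within a group of 3 depend on each other, so these values cannot show whether the replicate numbers pair the embryos. With the replicate block, *GDF3* (0.55), *NANOG* (1.30) and *PRDM14* (1.12) turned, and 9 genes were higher and 7 lower at an unadjusted p under 0.05, against 36 and 37 without it. With no filter these counts were 81 and 162, and with DESeq2 86 and 107. Some values rest on few counts, such as 4 for *KLF17* in control 2 and 16 for *LIN28A* in *CARM1* KD 2.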
